A study of Homo sapiens with 12 samples.

Results

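The comparison described here sets the polysome pool against the light pool of sucrose gradients from HepG2 cells treated with sorafenib. HepG2 is a human liver cancer cell line, called wild type in the labels, and sorafenib is a multikinase inhibitor used against hepatocellular carcinoma. The cells received 10 µM sorafenib for 12 h, in 3 cultures, and cycloheximide, added before lysis, held ribosomes in place on their mRNAs. Each culture gave 1 light library, from low-molecular complexes, free ribosomal subunits and single ribosomes, and 1 polysome library. All 6 sorafenib libraries among the 12 of the series were taken by their labels, with the fractions of a culture kept as a pair. The other 6 are the same fractions of 3 vehicle cultures, given DMSO for 12 h, and they enter only where the polysome/light ratio of sorafenib cells is set beside that of vehicle cells. The question is which RNAs of sorafenib-treated cells took a larger share of the polysome pool and which a larger share of the light pool. All cultures come from 1 cell line, and per the labels' protocols a lysate usually joins 2 dishes.

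An mRNA that is being translated carries several ribosomes at once and sediments as a polysome, whereas RNA that is stored, newly made, nuclear, mitochondrial or structural stays near the top of the gradient. Many mRNAs of the translation machinery start with a run of pyrimidines (a TOP sequence). Through it the protein LARP1 holds them off ribosomes when the mTORC1 pathway is inactive. During the integrated stress response some mRNAs with short upstream reading frames, such as ATF4, keep or gain ribosomes while most initiation slows. The number of ribosomes that fit on an mRNA also depends on the length of its coding sequence, so mRNAs of short proteins sediment lighter at the same rate of initiation.

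Total counts were 2060384, 511065 and 4989312 in light libraries 1 to 3 and 10011614, 13336689 and 10044378 in polysome libraries 1 to 3. Light library 2, the shallowest, stood apart: at 511065 counts per library it detected 25638 genes, light library 1 detected 16656, and the other 4 detected 13502 to 13699. On log2 CPM (counts scaled by sequencing depth) it correlated at 0.82 and 0.80 with light libraries 1 and 3, which correlated at 0.94 with each other, and the polysome libraries correlated at 0.98 to 0.99. The sample index in the label of polysome library 3 does not follow its library number, unlike the others, and whether it was sequenced in another run was not tested. All 10 hepatocyte markers were counted, at a summed 27288 to 28853 CPM in light and 30743 to 37043 CPM in polysome libraries (CPM of library totals, as for the other markers). The 6 leukocyte markers summed to 191 to 318 and 365 to 551 CPM, nearly all LYZ and CD68, with 1 to 4 counts of the defining marker PTPRC in each library. The 4 endothelial markers summed to 5 to 14 counts per library, which was 27.4 CPM in light library 2 and 0.525 to 2.81 CPM in the others. The 6 fibroblast markers summed to 30.5 to 48.9 CPM in light and 34.2 to 37.3 CPM in polysome libraries, mostly ACTA2 except in light library 2 (17.6 of 48.9 CPM). CD3E, the T cell marker, was at 0 except for 3 counts in light library 2. Most lists, and genes named as having few counts in light library 2, are given below also without culture 2. The list counts set beside vehicle cultures are given with all cultures only.

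Of 57353 rows, 13206 passed the filter on low counts and were tested with edgeR's quasi-likelihood test, with culture as a block and Benjamini-Hochberg adjustment over all genes tested (adjusted p under 0.05). In the sorafenib cells 1634 genes, 12.4% of those tested, were higher on polysomes and 1297, 9.82%, were higher in the light fraction. Calls in each list below are to be read beside these shares of all genes. At least 2-fold differences made up 1104 and 1021 of these, and at least 8-fold differences 7 and 175. The called light-enriched RNAs thus more often reached 8-fold than the polysome-enriched ones. The light libraries were shallower, so low light levels were measured less well than low polysome levels. The part of depth in this contrast was not tested. Values of the 3 libraries of each fraction did not overlap for 2659 of the 2931 genes called (90.7%), beside 39.3% of all genes tested. All ratios below are log2 polysome/light, positive where an RNA was higher on polysomes, on TMM-scaled counts. TMM is a scaling that sets the bulk of genes to equal levels, and the median over all genes was 0.03. A ratio therefore compares shares of each pool and not amounts of RNA, and in bulk lysates fewer cells with an mRNA on polysomes cannot be told apart from fewer polysomal copies per cell. Scaled by library totals alone, the median moved to 0.69, and 5008 genes were higher on polysomes (90.1% of calls, against 55.7%) and 549 in the light fraction. Calls numbered 260 and 298 without culture 1, 2529 and 2427 without culture 2 and 1012 and 1062 without culture 3.

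**Figure D1:**
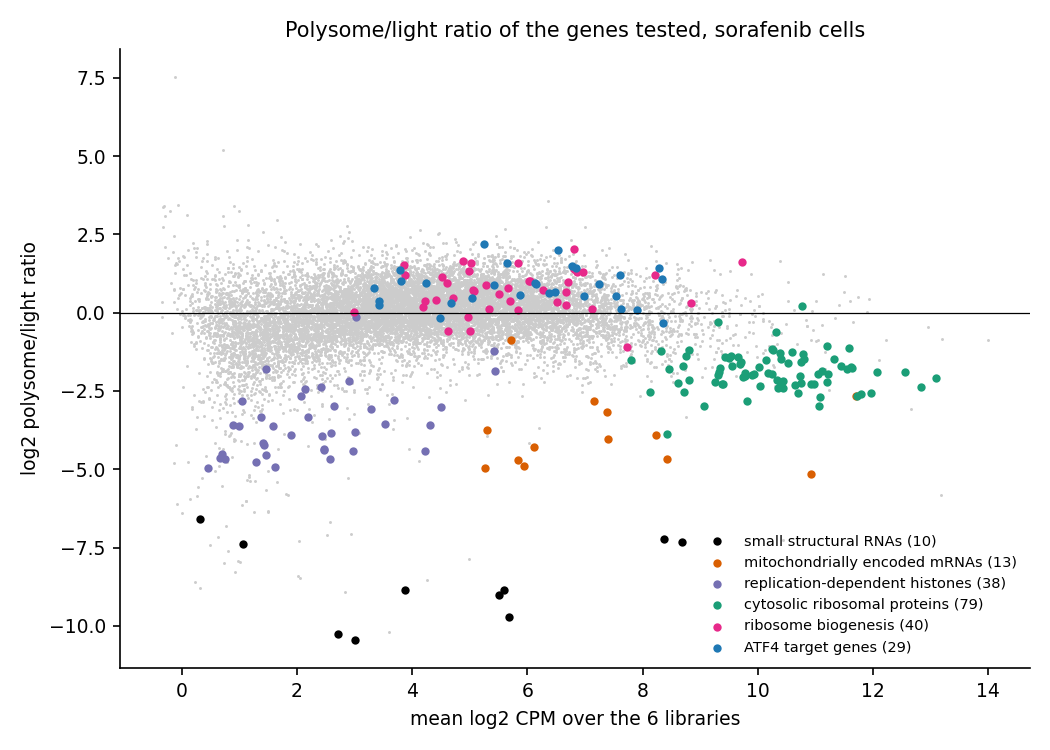
The log2 polysome/light ratio of each of the 13206 genes tested is plotted against its mean log2 CPM over the 6 libraries, with 6 gene lists in colour and the number of tested members in brackets. Small structural RNAs, mitochondrially encoded mRNAs, replication-dependent histones and all ribosomal proteins except RPL3 lie below 0. Most ribosome biogenesis and ATF4 target genes lie above it.

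By class of RNA, the light libraries held more structural, mitochondrial and ribosomal protein RNA and the polysome libraries more of all other coding RNA. Messenger RNAs of the 79 cytosolic ribosomal proteins took 22.1%, 18.3% and 23.3% of light counts and 9.06%, 9.07% and 7.32% of polysome counts. The 2 mitochondrial ribosomal RNAs, which belong to the ribosomes inside mitochondria, took 8.02%, 6.86% and 5.82% of light counts and 0.123%, 0.239% and 0.162% of polysome counts. Every light library was above every polysome library in these classes. Small non-coding RNAs took 1.51%, 2.33% and 0.683% of light counts and 0.149%, 0.138% and 0.15% of polysome counts, so the light libraries differed among themselves by more than 3-fold and light library 2 was the highest. Coding genes other than those of ribosomal proteins and mitochondria took 60% ± 0.951 of light counts and 84.9% ± 1.17 of polysome counts (SD, n = 3 each). The exact sign-flip permutation test over the 3 cultures (two-sided) gave p = 0.25 in each of the 10 classes, the smallest that 3 pairs allow and so the same after adjustment.

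**Figure D2:**
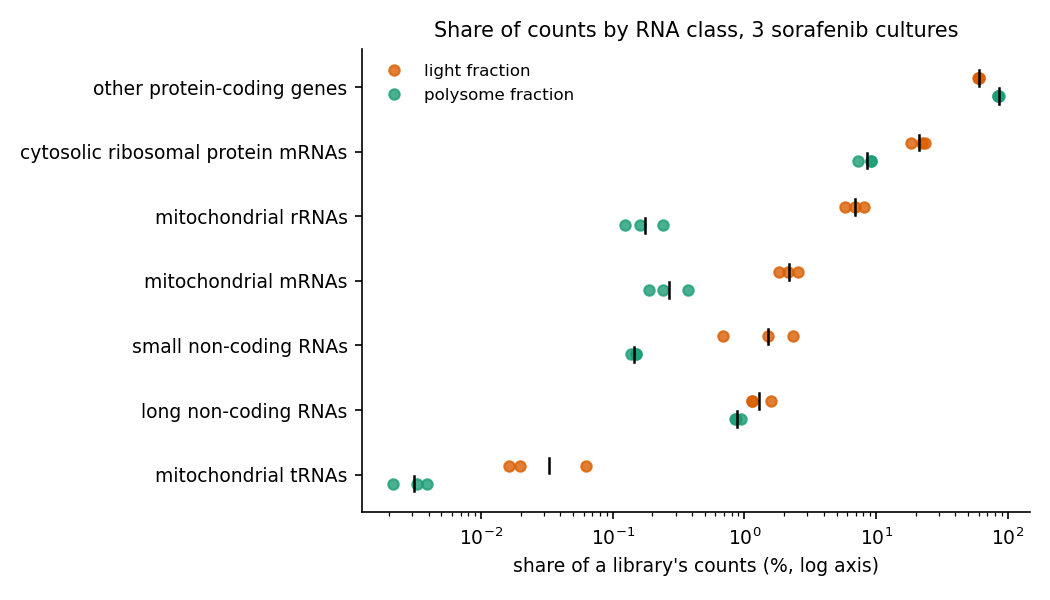
Each point is the share of 1 library's counts (percent, log axis) taken by a class of RNA, with light libraries in orange, polysome libraries in green and a bar at the mean of 3. The fractions do not overlap in any of the 7 classes drawn, and the mitochondrial rRNAs are separated most widely, at means of 6.9% and 0.175%.

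Small structural RNAs had the lowest median ratio of the lists described here. All 10 that passed the filter, of 24 in the table, were higher in the light fraction, with a median of -8.86, and 10 of 10 remained so without culture 2. RPPH1, the RNA of the tRNA-processing enzyme RNase P, had 1812, 2232 and 760 CPM in light libraries 1 to 3 and 1.8, 0.439 and 3.92 CPM in polysome libraries 1 to 3. Its ratio was -9.70 ± 0.73 (SE, n = 3 cultures, edgeR adjusted p = 2.2e-08), an 833-fold difference from light counts of 1007 to 2899 and polysome counts of 7 to 51. The row AL355075.4 held the same counts in every library, so these are 1 measurement. RMRP, the related RNA of RNase MRP, was at -8.87 (edgeR adjusted p = 1.9e-10). The 7SL RNA of the signal recognition particle, which docks ribosomes at the endoplasmic reticulum, and 7SK, which restrains the elongation kinase P-TEFb, were also light-enriched. RN7SL1 had 5878, 9073 and 2512 CPM in light and 28.6, 16.2 and 76.7 CPM in polysome libraries (-7.33 ± 0.74). RN7SL3 was at -9.02, RN7SL2 at -7.21 and RN7SK at -8.85 (as was the row RF00100, at -8.81), and the 7SL copies are near-identical, so the split of reads among them is uncertain. The U4 spliceosomal RNA RNU4-2 had 392, 120 and 288 light counts and 1, 1 and 3 polysome counts, too few for a useful fold. The box C/D small nucleolar RNA SNORD3A (U3), which acts in rRNA processing, had 152, 63 and 97 light and 6, 8 and 9 polysome counts. Of 450 small nucleolar and Cajal body RNA rows, 31 passed the filter. Of these 21 were higher in the light fraction, 0 were higher on polysomes and 10 did not pass the test. Without cultures 1, 2 and 3 in turn, 14 of 27, 25 of 31 and 17 of 27 were higher in the light fraction. A row can pass the filter on its light libraries alone. The part of this selection in the one-sided counts, here and among the structural RNAs, was not tested. In every one of the RNAs named here culture 3 gave the smallest difference, and its light library had the smallest share of small non-coding RNA.

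RNAs of the mitochondrial genome, which mitochondrial ribosomes translate inside the organelle, were light-enriched in nearly every case. Of 13 mitochondrially encoded mRNAs tested, 12 were higher in the light fraction, with a median of -4.02. The cytochrome oxidase subunit MT-CO2 had 12262, 18187 and 6839 CPM in light and 258, 627 and 209 CPM in polysome libraries. Its ratio of -5.15 ± 0.52 (SE, n = 3 cultures, edgeR adjusted p = 1.9e-06) was a 35.6-fold difference, present in each culture at -5.57, -4.86 and -5.03. The complex I subunits MT-ND2 (-4.95), MT-ND1 (-4.90), MT-ND4L (-4.71) and MT-ND3 (-4.30) were also low, and MT-CO1 was the least light-enriched of those that passed (-2.67 ± 0.47). The member that did not pass, MT-ND6 (-0.86, edgeR adjusted p = 0.12), was picked out after its value was seen, and the labels do not give whether counting used strand. Of the 2 ribosomal RNAs, MT-RNR1 had 23713, 16578 and 12827 CPM in light and 66.5, 120 and 177 CPM in polysome libraries (-7.25), and MT-RNR2 was at -5.81. Of 15 mitochondrial tRNAs tested 13 were higher in the light fraction, among them MT-TL1 (-5.28 ± 0.42) and MT-TG (-4.37 ± 0.29). Without culture 2 the counts were 12 of 13 mRNAs and 13 of 15 tRNAs, and without culture 1 they were 11 and 11.

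Messenger RNAs of the cytosolic ribosome itself took larger shares of the light pool. Of 79 ribosomal protein genes tested, 71 were higher in the light fraction, 0 were higher on polysomes and 8 did not pass, beside the 9.82% of all genes that were higher in the light fraction. The median was -1.91, and both subunits were alike, at -2.03 over 47 genes of the large subunit and -1.77 over 32 of the small subunit. RPL39, a small protein of the exit tunnel, had 1117, 1447 and 1389 CPM in light and 61.3, 165 and 72.1 CPM in polysome libraries. Its ratio of -3.87 ± 0.38 (SE, n = 3 cultures, edgeR adjusted p = 1.3e-06) was the lowest of the list. RPS29 (-2.80), RPL29 (-2.53) and RPL21 (-2.26) were among the others with the lowest p. RPS6, the substrate of S6 kinase, had 6680, 3878 and 7416 CPM in light and 1807, 2004 and 1413 CPM in polysome libraries, a ratio of -1.75 ± 0.44, and RPLP0 of the ribosomal stalk was at -1.77 ± 0.43. The light libraries stayed above the polysome libraries for each of these genes, but culture 2 gave the smallest difference of RPS6 and RPLP0, and the list's median was -2.04, -0.98 and -2.50 in cultures 1 to 3. Without culture 2, 78 of 79 were higher in the light fraction, against 7 without culture 1 and 39 without culture 3, with medians of -2.32, -1.83 and -1.52. RPL3 had the one ratio above 0, at 0.22 (edgeR adjusted p = 0.74), and was picked out after its value was seen.

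The sequence at the annotated start was read for 9572 of the genes tested, since a pyrimidine start is the known mark of TOP mRNAs. The windows below run from 8 bases before the RefSeq start (GRCh38.p14) to base 20 of the transcript, 5′ to 3′, and capitals mark an unbroken run of C and T that opens with C at the annotated start. They are shown because they pair RNAs that carry such a run and were higher in the light fraction (RPL39, RPL29, TPT1, RACK1, and the non-coding SNHG19), mRNAs that carry one and did not pass the test (EEF1A1, EEF2), and a light-enriched mRNA without one (FTL). RPL39 lies at chrX:119791611-119791638 on the minus strand, RPL29 at chr3:51995876-51995903 minus, TPT1 at chr13:45341164-45341191 minus, RACK1 at chr5:181243887-181243914 minus, SNHG19 at chr16:2155339-2155366 minus, EEF1A1 at chr6:73521013-73521040 minus, EEF2 at chr19:3985444-3985471 minus and FTL at chr19:48965301-48965328 plus.
RPL39: gccagcttCCCTCCTCTTCCTTTCTCCg
RPL29: gcccctttCTCTTCCggttctaggcgct
TPT1: gagtcggcCTTTTCCgcccgctcccccc
RACK1: ttttctctCTCTCTTTCactgcaaggcg
SNHG19: gcccctgtCTTTTCggggtcgagtccga
EEF1A1: tgaacgttCTTTTTCgcaacgggtttgc
EEF2: tcagcgttCTCTTCCgccgtcgtcgccg
FTL: gtcccctcgcagttcggcggtcccgcgg
RPL39 has the longest run of these, 19 bases, and the lowest ratio, while the 7-base runs of RPL29, TPT1, EEF1A1 and EEF2 went with ratios from -2.53 to -0.06. The run was not shared by all light-enriched RNAs: RPS29 (-2.80), SNHG29 (-2.12), SNHG3 (-2.10) and GAS5 (-1.38) have none at the annotated start. EIF4B, an initiation factor, has a 5-base run and a ratio of 0.86. A C at the start and at least 5 pyrimidines, on the transcript strand, are found in 4.04% of all 27305 promoters in the RefSeq table, in 43 of 63 ribosomal protein genes with a window and in 15 of 18 translation factor genes. Of 521 tested coding genes with this start, 103 (19.8%) were higher in the light fraction and 57 (10.9%) on polysomes. Of 8171 coding genes with another base at the start, 504 (6.17%) and 1197 (14.6%) were. Of 589 coding genes with a C at the start and fewer pyrimidines, 73 (12.4%) were higher in the light fraction and 63 (10.7%) on polysomes. Without the ribosomal proteins, 478 genes with the pyrimidine start remained, of which 61 (12.8%) were higher in the light fraction and 57 (11.9%) on polysomes, with a median of 0.01. The annotated start need not be the start used in HepG2 cells, and no match says only that these letters are not at that position.

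Translation factors and other mRNAs of the TOP class were called in both directions. Of 26 tested, 10 were higher in the light fraction, 2 on polysomes and 14 did not pass, with a median of -0.64 (-0.01 on library totals). TPT1, the translationally controlled tumour protein, had 6365, 3652 and 7694 CPM in light and 1057, 1422 and 709 CPM in polysome libraries, a ratio of -2.47 ± 0.48 (SE, n = 3 cultures, edgeR adjusted p = 0.0011). The ribosomal scaffold RACK1 (-1.72), the initiation factor subunit EIF3H (-1.71) and the nascent chain factor BTF3 (-1.66) were also higher in the light fraction. The elongation factor EEF1A1 had 24229, 16669 and 27129 CPM in light and 14119, 13446 and 9389 CPM in polysome libraries (-0.87 ± 0.52, edgeR adjusted p = 0.25), so its fractions did not overlap but the difference did not pass. EEF2, which moves the ribosome along the mRNA, overlapped between fractions at 801, 782 and 1490 and 1111, 921 and 809 CPM. EIF3A, the largest subunit of initiation factor eIF3, went the other way, with 43.5, 51 and 55.6 CPM in light and 361, 292 and 337 CPM in polysome libraries (2.73 ± 0.29, edgeR adjusted p = 3.5e-06). EIF3A and EIF3H, subunits of 1 complex, were thus called in opposite directions. Without culture 2, 18 of 26 were higher in the light fraction and 3 on polysomes, without culture 1 it was 1 and 1, and without culture 3 it was 4 and 3.

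**Figure D3:**
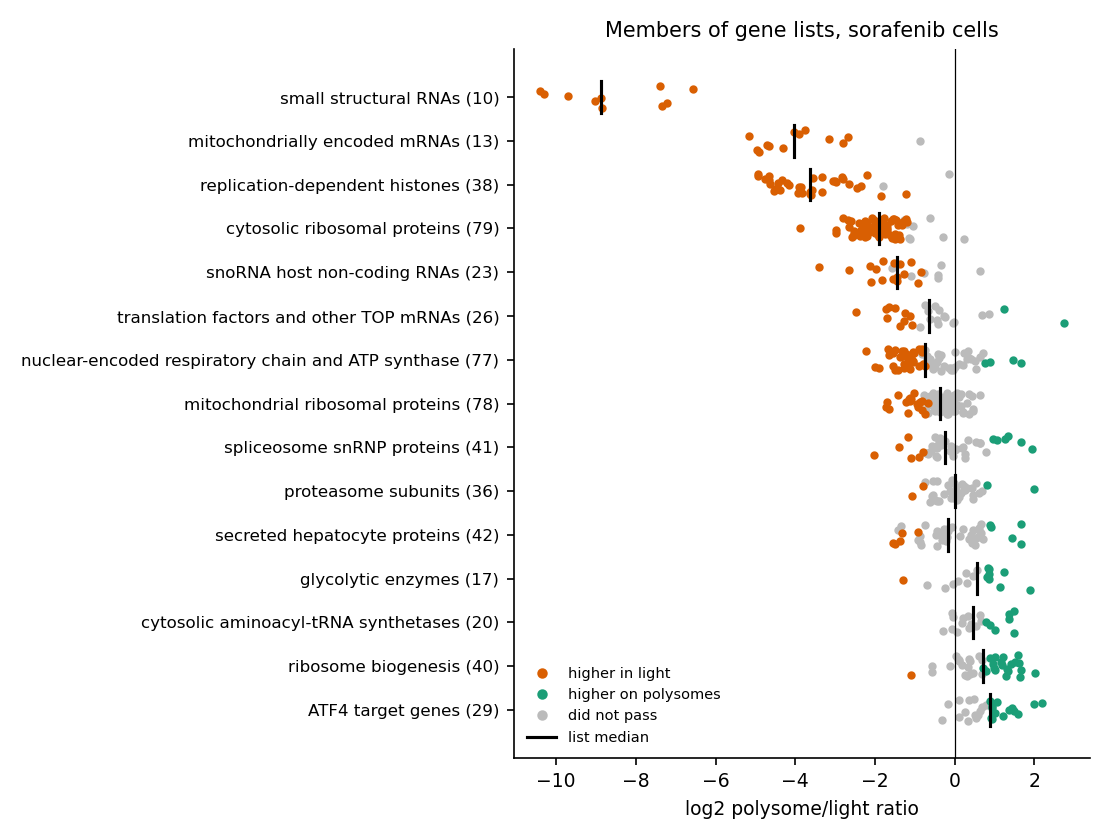
Each point is 1 tested gene of a list, placed by its log2 polysome/light ratio, orange where it was higher in the light fraction, green where it was higher on polysomes and grey where it did not pass; black bars are list medians and brackets give the tested members. Library totals as the only scale move all ratios up and take the medians of the mitochondrial ribosomal proteins, spliceosome proteins and secreted hepatocyte proteins above 0.

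Non-coding RNAs that host small nucleolar RNAs were called in the light fraction or did not pass. Of 23 tested, 16 were higher there, 0 on polysomes and 7 did not pass, with a median of -1.44. SNHG19, whose start is printed above, had 164, 90.9 and 216 CPM in light and 24.5, 29 and 20.1 CPM in polysome libraries (-2.66 ± 0.31, SE, n = 3 cultures, edgeR adjusted p = 9.4e-06). SNHG29 (-2.12), SNHG3 (-2.10) and DANCR (-1.81) were also higher there. GAS5, a host transcript known to be held on ribosomes and degraded there, had 319, 88.7 and 496 CPM in light and 105, 96.5 and 94.1 CPM in polysome libraries. It was called at -1.38 ± 0.37 (edgeR adjusted p = 0.011) although culture 2 gave 0.12, and without culture 2 its ratio was -2.03. Among 11 other long non-coding RNAs tested, 8 were higher in the light fraction, against 4, 7 and 5 without cultures 1, 2 and 3 in turn and 5 on library totals, where 3 were higher on polysomes. NEAT1, the scaffold of nuclear paraspeckles, had 381, 195 and 297 CPM in light and 129, 46 and 77 CPM in polysome libraries (-1.86 ± 0.27). MALAT1, a nuclear speckle RNA, did not follow it, with 417, 324 and 640 CPM in light and 915, 545 and 727 CPM in polysome libraries (0.69 ± 0.33, edgeR adjusted p = 0.14). The cytoplasmic RNA NORAD, which binds Pumilio proteins, was at -0.08 ± 0.25, and its sign turned on library totals. Host calls numbered 7 without culture 1, 21 without culture 2 and 10 without culture 3.

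Replication-dependent histone mRNAs, which end in a stem-loop in place of a poly(A) tail, were strongly light-enriched. Of 65 genes 38 passed the filter, and 36 of them were higher in the light fraction, with a median of -3.62. HIST1H3B had 91.8, 155 and 48 CPM in light and 2.7, 1.69 and 10.7 CPM in polysome libraries (-4.43 ± 0.54, SE, n = 3 cultures, edgeR adjusted p = 1.5e-05). HIST1H2BC (-4.42 ± 0.44) and HIST1H3H (-3.01 ± 0.32) were others. The light library of culture 3 was the lowest for each of these, and the list's median was -3.89, -4.36 and -1.95 in cultures 1 to 3, the same order of cultures as the share of small non-coding RNA in the light libraries (1.51%, 2.33% and 0.683%). The part of that RNA, which also lacks a poly(A) tail, in this result was not tested. Without culture 2 the median was -2.97 with 36 of 38 called, and light library 3 alone against the polysome libraries gave -2.54 with 26 of 38. The 11 replacement histones, whose mRNAs are polyadenylated, had a median of 0.38, with H2AFJ higher in the light fraction (-0.88 ± 0.24) and H2AFY2 on polysomes (0.68 ± 0.24). H2AFZ did not pass (0.47, edgeR adjusted p = 0.28).

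Messenger RNAs with an iron-responsive element were called in both directions. The element binds iron regulatory proteins, which block initiation when it lies ahead of the coding sequence and stabilise the mRNA when it lies behind it. FTL, the ferritin light chain, with the element ahead, had 24746, 12342 and 21814 CPM in light and 2072, 2443 and 2204 CPM in polysome libraries (-3.08 ± 0.53, SE, n = 3 cultures, edgeR adjusted p = 4e-04). The ferritin heavy chain FTH1 had 13545, 6472 and 10956 CPM in light and 1575, 1763 and 1432 CPM in polysome libraries (-2.64 ± 0.48), and the iron exporter SLC40A1 was at -1.28 ± 0.26. TFRC, the transferrin receptor, with elements behind the coding sequence, had 94.5, 53.2 and 127 CPM in light and 220, 280 and 249 CPM in polysome libraries (1.45 ± 0.30, edgeR adjusted p = 0.0019). The iron importer SLC11A2 was at 0.95 ± 0.27, from 6 counts in light library 2, and at 0.84 without culture 2. Of 9 tested, 3 were higher in the light fraction, 2 on polysomes and 4 did not pass, against 1 and 1 without culture 1, 3 and 2 without culture 2 and 2 and 1 without culture 3.

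At the other end, the largest called differences among well-counted genes (mean log2 CPM of at least 5) included mRNAs of matrix, cytoskeletal and nuclear proteins. COL9A3, a collagen IX chain, had 27.5, 24.4 and 19.7 CPM in light and 266, 315 and 265 CPM in polysome libraries. Its ratio of 3.56 ± 0.30 (SE, n = 3 cultures, edgeR adjusted p = 1.2e-07) was an 11.8-fold difference and lay close together in the cultures, at 3.26, 3.68 and 3.73. COL18A1, the collagen from which endostatin is cut, had 23.4, 33.2 and 37.8 CPM in light and 189, 196 and 236 CPM in polysome libraries (2.75 ± 0.28). SART1, a spliceosome assembly factor, had 17.4, 19.9 and 20.7 CPM in light and 126, 122 and 122 CPM in polysome libraries (2.67 ± 0.27), with 9 counts in light library 2 and 2.65 without culture 2. Light and polysome libraries that do not overlap were a condition for naming these genes, so their separation is not a finding. FLNA, an actin cross-linker (2.45), AAMP, a WD-repeat protein (2.31), the mitochondrial protease LONP1 (2.28), the chromatin remodeller CHD4 (2.26), and the actin nucleator DIAPH1 (2.19) followed. SLC25A25, a calcium-regulated mitochondrial ATP carrier (2.26), HNRNPUL2, an RNA-binding protein (2.18), and ZGPAT, a zinc finger repressor (2.18), completed the 12 with EIF3A. Among 29 actin and tubulin cytoskeleton genes, 11 were higher on polysomes, 2 in the light fraction and 16 did not pass. The myosin heavy chains MYH10 (1.89 ± 0.27) and MYH9 (1.83 ± 0.30) were among the 11. Without culture 1 it was 4 and 0, without culture 2 14 and 6, and without culture 3 6 and 2. Light counts of these genes are low, and light library 2 held 4 counts of SLC25A25, 5 of ZGPAT and 7 of DIAPH1, whose ratios without culture 2 were 2.14, 2.01 and 2.16.

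**Figure D4:**
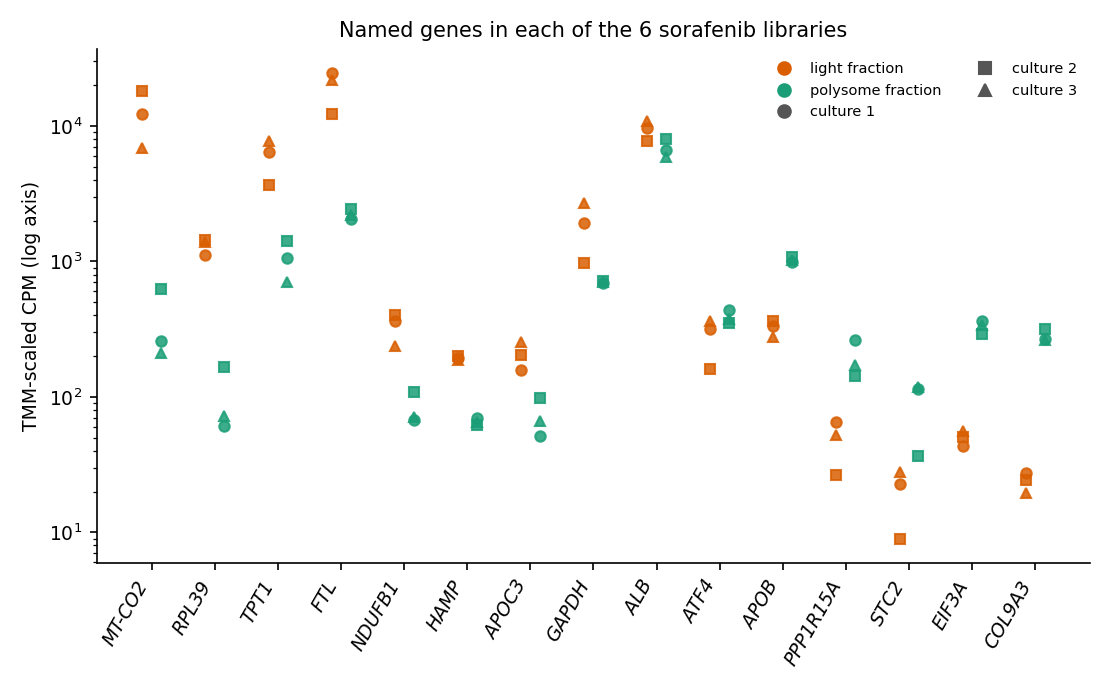
TMM-scaled CPM (log axis) of 15 named genes in each of the 6 sorafenib libraries, light in orange and polysome in green, with a symbol for each culture. MT-CO2, RPL39, TPT1, FTL, NDUFB1, HAMP, APOC3 and GAPDH are higher in the light libraries, ALB and ATF4 overlap between fractions, and APOB, PPP1R15A, STC2, EIF3A and COL9A3 are higher in the polysome libraries.

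Factors that build ribosomes were called mostly on polysomes or did not pass. Of 40 ribosome biogenesis genes tested, 20 were higher on polysomes, beside 12.4% of all genes, 1 was higher in the light fraction and 19 did not pass, with a median of 0.72. NOC2L, a nucleolar repressor and assembly factor, had 36.2, 75.4 and 63.2 CPM in light and 220, 247 and 213 CPM in polysome libraries (2.02 ± 0.28, SE, n = 3 cultures, edgeR adjusted p = 6.7e-05). The rRNA transcription cofactor TCOF1 (1.60), the RNA polymerase I factor RRN3 (1.58) and the pseudouridine synthase DKC1 (1.29) were also higher on polysomes. NOP56, a core protein of box C/D particles whose gene hosts small nucleolar RNAs, was the exception, with 381, 255 and 300 CPM in light and 144, 137 and 151 CPM in polysome libraries (-1.10 ± 0.27, edgeR adjusted p = 0.0068). Without culture 1, 5 of 40 were higher on polysomes, against 26 without culture 2 and 15 without culture 3, with medians of 0.66, 0.85 and 0.75.

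Messenger RNAs of the amino acid stress response were called on polysomes or did not pass. Of 29 ATF4 target genes tested, 15 were higher on polysomes, 0 in the light fraction and 14 did not pass, with a median of 0.88, but light library 3 alone against the polysome libraries gave 4. STC2, a secreted stress glycoprotein, had 22.8, 8.87 and 27.8 CPM in light and 115, 36.4 and 118 CPM in polysome libraries (2.18 ± 0.27, SE, n = 3 cultures, edgeR adjusted p = 2e-05), with 4 counts in light library 2 and 2.17 without culture 2. PPP1R15A, the subunit that directs dephosphorylation of eIF2, had 65, 26.6 and 52.4 CPM in light and 265, 143 and 172 CPM in polysome libraries (1.99 ± 0.27, edgeR adjusted p = 5.2e-05). The mTORC1 inhibitor DDIT4 (1.58), the transcription factor CEBPB (1.48) and both chains of the leucine exchanger, SLC7A5 (1.43) and SLC3A2 (1.43), were higher on polysomes as well. ATF4 itself overlapped between fractions and did not pass, and neither did DDIT3 or ASNS. ATF4 had 316, 162 and 366 CPM in light and 439, 349 and 375 CPM in polysome libraries (0.52 ± 0.30, edgeR adjusted p = 0.23). DDIT3 (CHOP), a pro-apoptotic factor, was at 0.57 ± 0.29 (edgeR adjusted p = 0.16) and asparagine synthetase ASNS at 0.32 ± 0.28 (edgeR adjusted p = 0.44). Of 16 mRNAs listed for their upstream reading frames, 8 were higher on polysomes, among them PPP1R15A and IBTK, a kinase inhibitor (1.48 ± 0.27), and 0 in the light fraction. Of 20 cytosolic tRNA synthetases, 7 were higher on polysomes and 0 in the light fraction, led by YARS (1.48), AARS (1.48), NARS (1.37) and VARS (1.35), which charge tyrosine, alanine, asparagine and valine tRNAs. Amino acid transporters gave 8 of 18 higher on polysomes and 0 in the light fraction. These lists share members, so their counts are not separate results. SLC7A5, SLC3A2 and SLC7A1 are among both the ATF4 targets and the transporters. PPP1R15A, CEBPB and DDIT3 are among both the ATF4 targets and the upstream reading frame list, which also shares EPRS with the synthetases. Without culture 1 the ATF4 targets gave 3 calls on polysomes, the upstream reading frame list 2, the synthetases 1 and the transporters 1. Without culture 2 they gave 19, 10, 9 and 10, and without culture 3 they gave 12, 5, 5 and 5. Against light library 3 alone the upstream reading frame list gave 2.

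Several complexes and compartments held members on both sides. In the spliceosome, the helicase SNRNP200 had 27.5, 31 and 36.2 CPM in light and 128, 101 and 131 CPM in polysome libraries (1.94 ± 0.26, SE, n = 3 cultures, edgeR adjusted p = 4.4e-05). PRPF8, at the catalytic centre, was at 1.65 and the GTPase EFTUD2 at 1.33. The Sm ring protein SNRPD2 had 927, 592 and 698 CPM in light and 187, 181 and 171 CPM in polysome libraries (-2.02 ± 0.31, edgeR adjusted p = 1.7e-04), and LSM3 was at -1.41. Of 41 spliceosome genes 6 were higher on polysomes and 6 in the light fraction, shares near those of all genes (12.4% and 9.82%). It was 2 and 1 without culture 1, 7 and 17 without culture 2, 6 and 3 without culture 3 and 16 and 2 on library totals. In the proteasome 2 and 2 of 36 were called, shares below those of all genes, against 2 and 11 without culture 2 and 19 and 0 on library totals, with the regulatory subunit PSMD2 at 1.99 ± 0.27 and the core subunit PSMB3 at -1.07 ± 0.31. The initiation scaffold EIF4G1 had 71, 93.1 and 86 CPM in light and 401, 313 and 332 CPM in polysome libraries (2.08 ± 0.29, edgeR adjusted p = 6.5e-05), and LARP1, the TOP mRNA repressor, was at 1.94 ± 0.26. The small repressors of cap-dependent initiation EIF4EBP1 (-1.08 ± 0.25) and EIF4EBP2 (-1.32 ± 0.25) were higher in the light fraction. Replication genes showed MCM3 of the helicase at 1.65 and RPA3, the smallest subunit of replication protein A, at -1.09. In the endoplasmic reticulum the chaperones HYOU1 (1.80 ± 0.28) and HSPA5 (1.37 ± 0.34) and the oxidase ERO1A (1.46 ± 0.27) stood against the translocon proteins SSR4 (-1.61 ± 0.27) and SEC61G (-1.24 ± 0.26). Among cytosolic chaperones the ring subunit CCT2 was at 1.14 ± 0.28, the prefoldin subunit PFDN4 at -1.74 ± 0.30 and the small heat shock protein HSPB1 at -1.25 ± 0.25. Protein length itself was not analysed here.

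Nuclear-encoded subunits of the respiratory chain and ATP synthase were mostly called in the light fraction or did not pass. Of 77 tested, 37 were higher in the light fraction, 4 on polysomes and 36 did not pass, with a median of -0.75 (-0.11 on library totals, where 16 were higher in the light fraction and 18 on polysomes). ATP5ME, a subunit of ATP synthase, had 969, 900 and 575 CPM in light and 145, 238 and 142 CPM in polysome libraries (-2.23 ± 0.33, SE, n = 3 cultures, edgeR adjusted p = 1e-04). The accessory complex I subunits NDUFB1 (-2.01 ± 0.28), NDUFA11 (-1.91 ± 0.31) and NDUFB4 (-1.56 ± 0.25) were also higher in the light fraction. SDHA, the flavoprotein subunit of complex II, was at 1.46 ± 0.28 (edgeR adjusted p = 9.6e-04) and the complex I subunit NDUFS1 at 0.75, both higher on polysomes and named after their values were seen. By complex, calls in the light fraction numbered 16 of 37 in complex I, 0 of 4 in complex II, 4 of 9 in complex III, 6 of 10 in complex IV and 11 of 17 in ATP synthase. Without cultures 1, 2 and 3 in turn, 3, 51 and 21 of the 77 were higher in the light fraction. Of 78 mitochondrial ribosomal proteins, 18 were higher in the light fraction and 0 on polysomes, with a median of -0.37 that library totals turned to 0.27, with 6 and 18 calls. MRPL36 (-1.72 ± 0.26), MRPL54 (-1.71 ± 0.27), MRPL27 (-1.65 ± 0.33) and MRPS24 (-1.43 ± 0.27) were among the 18. Without cultures 1, 2 and 3 in turn it was 2, 41 and 8.

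Secreted liver proteins, the main products of hepatocytes, were called about as often as all genes. Of 42 tested, 5 were higher on polysomes, 5 in the light fraction and 32 did not pass, beside 12.4% and 9.82% of all genes, and on library totals it was 20 and 4. APOB, the very large protein of low-density lipoprotein, had 334, 366 and 277 CPM in light and 996, 1073 and 1023 CPM in polysome libraries (1.67 ± 0.33, SE, n = 3 cultures, edgeR adjusted p = 0.0012). Prothrombin (F2) was at 1.43 ± 0.31. The small apolipoprotein APOC3 had 158, 204 and 255 CPM in light and 51.3, 97.8 and 66.1 CPM in polysome libraries (-1.56 ± 0.27, edgeR adjusted p = 4e-04), and APOM (-1.37 ± 0.26) and the thyroxine carrier TTR (-1.32 ± 0.28) were also higher in the light fraction. Hepcidin (HAMP), the peptide hormone of iron balance, had 192, 199 and 188 CPM in light and 69.5, 62.2 and 65.7 CPM in polysome libraries (-1.55 ± 0.25, edgeR adjusted p = 2.3e-04). Albumin overlapped between fractions at 9620, 7673 and 10868 CPM in light and 6598, 8015 and 5894 CPM in polysome libraries (ALB, -0.46 ± 0.46, edgeR adjusted p = 0.52), as did AFP (0.51 ± 0.43) and SERPINA1 (-0.87 ± 0.47). Without culture 2, 5 were higher on polysomes and 12 in the light fraction, and without culture 1, 0 and 1.

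A list of small secreted, metal-binding and actin-binding proteins had a median of -0.78 (-0.14 on library totals). It also holds small proteins outside these classes, such as ROMO1, TOMM7, POLR2K and POLR2L. Of 26 tested, 9 were higher in the light fraction and 0 on polysomes, beside 9.82% and 12.4% of all genes. The cytokine MIF (-1.75 ± 0.35), the redox regulator of mitochondria ROMO1 (-1.73 ± 0.36) and the annexin partner S100A10 (-1.60 ± 0.26) were among them. Of 19 selenoproteins, which recode a stop codon, 4 were higher on polysomes and 7 in the light fraction, beside 12.4% and 9.82% of all genes, and 8 did not pass. It was 0 and 0 without culture 1, 4 and 8 without culture 2, 1 and 3 without culture 3 and 7 and 1 on library totals. GPX2, a glutathione peroxidase, had 450, 1243 and 279 CPM in light and 149, 210 and 130 CPM in polysome libraries (-1.75 ± 0.34), and thioredoxin reductase TXNRD1 was at 1.17 ± 0.26. Light library 2 was the highest for GPX2, and without culture 2 its ratio was -1.37. Without cultures 1, 2 and 3 in turn, 2, 23 and 5 of the 26 small proteins were higher in the light fraction.

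Enzymes of central metabolism and mitosis genes were called on polysomes more often than in the light fraction, as were all genes (12.4% and 9.82%). Of 17 glycolytic genes tested, 8 were higher on polysomes and 1 in the light fraction. Hexokinase HK2 (1.88 ± 0.31, SE, n = 3 cultures, edgeR adjusted p = 3.2e-04), with 2 counts in light library 2 and 1.70 without culture 2, and phosphofructokinase PFKL (1.13 ± 0.27) were examples. GAPDH, the exception, had 1914, 969 and 2695 CPM in light and 688, 715 and 702 CPM in polysome libraries (-1.29 ± 0.39, edgeR adjusted p = 0.021). Of 28 cholesterol and fatty acid synthesis genes 6 were higher on polysomes and 1 in the light fraction, with fatty acid synthase FASN at 1.85 ± 0.33 and ATP citrate lyase ACLY at 1.03 ± 0.26. FASN had 29.5, 122 and 80.8 CPM in light and 224, 246 and 259 CPM in polysome libraries, so its light libraries differed by more than 4-fold. Among mitosis genes 7 of 29 were higher on polysomes and 0 in the light fraction, including CENPF of the kinetochore (1.66), the condensin subunit NCAPD2 (1.60) and TOP2A (0.98). The AP-1 factor JUN was higher on polysomes (1.05 ± 0.25, edgeR adjusted p = 0.0052), and MYC overlapped between fractions (0.50 ± 0.26, edgeR adjusted p = 0.17). Without culture 1 glycolytic genes gave 1 and 0 calls, lipid synthesis genes 0 and 0 and mitosis genes 2 and 0. Without culture 2 they gave 7 and 1, 9 and 4, and 8 and 2, and without culture 3 they gave 5 and 0, 6 and 0, and 5 and 0. For glycolytic genes light library 3 alone against the polysome libraries gave 2 and 1.

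The polysome/light ratio was then set beside that of the vehicle cultures in 1 fit over all 12 libraries, which share no library between treatments. Of 14955 genes tested, the ratio was higher in sorafenib than in vehicle cultures for 2215 (14.8%) and lower for 1728 (11.6%), and over genes the ratios correlated at 0.36. The ratios of single sorafenib cultures correlated with each other at 0.48 (cultures 1 and 2), 0.72 (1 and 3) and 0.35 (2 and 3) over 13206 genes. The low correlation between treatments is therefore not by itself a measure of a treatment difference. The mRNAs of respiratory chain and ATP synthase subunits lay on opposite sides of 0, with a list median of 0.90 in vehicle and -0.69 in sorafenib cultures, and 58 of 77 were lower and 5 higher. NDUFA11 was at 1.52 in vehicle cultures, a difference of -3.36 ± 0.41 (SE, edgeR adjusted p = 4.7e-06). Replication-dependent histones went from a median of 1.09 to -3.51, with 38 of 43 lower and 0 higher. Translation factors and other TOP mRNAs went from -2.19 to -0.56, with 17 of 26 higher and 0 lower, whereas ribosomal proteins stayed close, at -2.40 and -1.84, with 12 of 79 higher and 2 lower. Ribosome biogenesis genes went from -0.62 to 0.79 (29 of 40 higher, 0 lower), cytosolic tRNA synthetases from -0.84 to 0.55 (15 of 20 higher, 0 lower) and ATF4 targets from -0.26 to 0.95 (15 of 29 higher, 0 lower). EEF2 was at -2.71 in vehicle cultures (difference 2.74 ± 0.46, edgeR adjusted p = 1.1e-04), and EEF1A1 differed by 2.21 ± 0.61 (edgeR adjusted p = 0.0084). FTL and FTH1 were at -5.50 and -4.97 in vehicle cultures, and both differences passed (2.50 and 2.40, edgeR adjusted p = 0.0036 and 0.0031). On library totals alone the median difference moved from 0.04 to -0.25, with 1347 higher and 2459 lower, and without sorafenib culture 1 it was 1356 and 933.

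**Figure D5:**
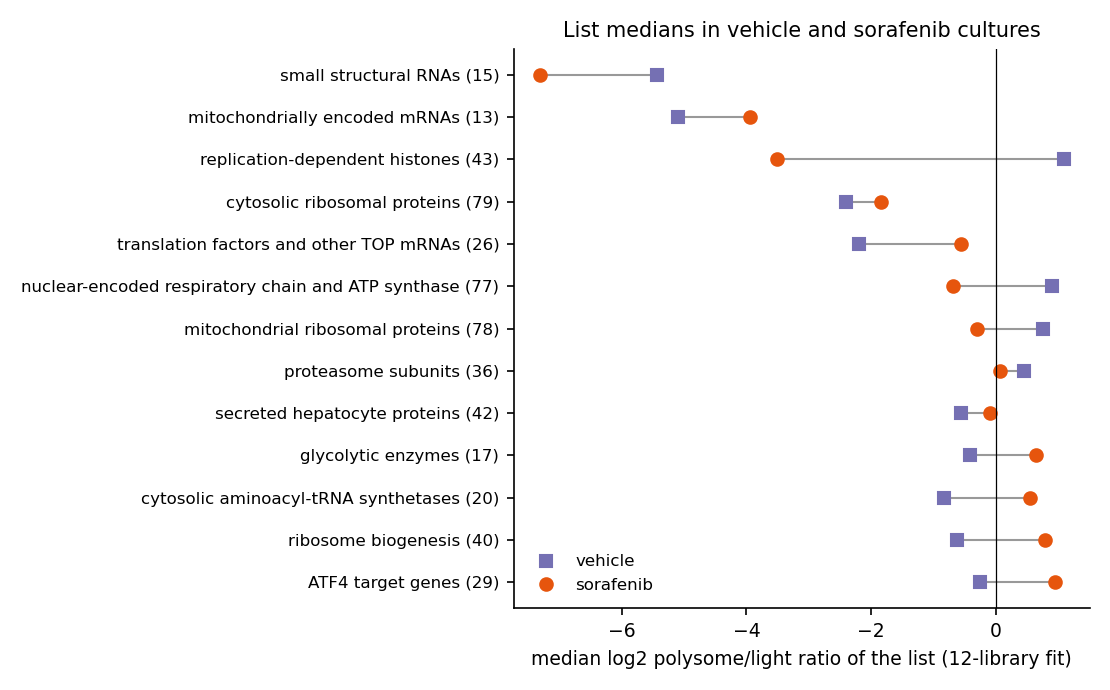
Median log2 polysome/light ratio of 13 gene lists in vehicle (squares) and sorafenib (circles) cultures, from the fit over all 12 libraries, with the number of members in brackets. Respiratory chain genes, mitochondrial ribosomal proteins and histones lie above 0 in vehicle and below 0 in sorafenib cultures, and ribosome biogenesis genes, tRNA synthetases, glycolytic enzymes and ATF4 targets lie the other way around; on library totals the sorafenib median of the mitochondrial ribosomal proteins is above 0.

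The share of calls also moved with the level of a gene. In the lowest of 4 groups of genes ordered by mean log2 CPM, 44 of 3302 were higher on polysomes and 317 in the light fraction, with medians of -0.33, -0.79 and -0.16 in cultures 1 to 3. In the third group it was 685 and 237 of 3301, and in the highest 596 and 541 of 3302. The median of the rarely counted RNAs of the lowest group was thus lowest in culture 2, whose light library detected the most genes at equal depth. The filter admits a row on 1 fraction alone, and a given CPM is fewer counts in the shallower light libraries. Rare RNAs could therefore enter through the light fraction on few counts. The parts of light library 2 and of the filter in these calls were not tested.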

How the data were processed

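Counts per gene are whole numbers that the authors deposited, not normalized, in 1 table of 57353 rows by 12 libraries. Per the submitters' processing notes, reads were placed on build GRCh38.p12. The sources used here do not name the aligner, counter or gene annotation, or say whether strand was used. Rows were matched to RefSeq genes of GRCh38.p14 by symbol (36210) or synonym (1061), 37 were mitochondrial and 20045 did not match. Among the genes tested 16 rows shared all their counts with another row, and copies, pseudogenes, overlapping and antisense genes are uncertain.

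In R 4.3.3, edgeR 4.0.16 (limma 3.58.1, DESeq2 1.42.0) was run on the 6 sorafenib libraries: filterByExpr by fraction, TMM, a quasi-likelihood fit of culture and fraction, Benjamini-Hochberg adjustment over 13206 genes. SE is the absolute log2 ratio over the square root of F. Rows left untested made up no more than 5.15% of any library, and the biological coefficient of variation was 0.247. The difference from vehicle is the interaction in 1 fit of 12 libraries with 6 cultures as a block. Per the labels, same-numbered fractions come from 1 culture, which is the pairing; after removing group means, paired libraries correlated at 0.07, 0.04 and 0.02. The labels do not say that the 3 cultures were separate experiments, and p-values may then reflect technical spread alone. No replicate pair was a duplicate, since chi-square divided by its degrees of freedom was 10.2 to 28.9.

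Named genes are the 12 largest called differences in each direction (mean log2 CPM of at least 5, fractions not overlapping, 1 sign in 3 cultures), up to 5 members of each list by p, up to 6 differences from vehicle in each direction and a fixed set of genes; a part of the rule on the shortest and longest proteins was not run. Members, lists and rules were chosen with earlier results of these data known. Grouping by protein length was not run. The script was tested on simulated data. Precision rests on totals of 511065 to 13336689 counts, and genes with few counts in light library 2 are measured least well. Alternatives are in the closing section. Figures used matplotlib 3.10.9. Some results are not reported here.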

Additional observations from a re-analysis of the deposited data

Results flagged for a closer look

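The log2 polysome/light ratio differed between sorafenib and vehicle cultures by the edgeR interaction test, with Benjamini-Hochberg adjustment, for the 12 well-counted genes with the largest called differences. Lower in sorafenib cultures were RN7SL3 (-4.76), RPPH1 (-4.09), AL355075.4 (-4.09, the same counts as RPPH1), RN7SL1 (-4.05), RN7SK (-4.01) and RN7SL2 (-4.00). RN7SL1, for example, was at -3.20 in vehicle cultures. Higher in sorafenib cultures were NOP56 (3.84), the actin nucleator DIAPH1 (3.61), the row named for the microRNA gene MIR3654 (3.61), COL18A1 (3.59), the unnamed locus AC008038.1 (3.46) and RRBP1 (3.35), a ribosome-binding protein of the endoplasmic reticulum. NOP56 was at -4.86 in vehicle cultures. Groups of 3 libraries were too small for a check of single outlying libraries.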

How the results depend on the processing

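By setting, genes higher on polysomes and in the light fraction numbered 1609 and 1472 without the replicate block, 1033 and 1204 with DESeq2, 2551 and 2703 with voom quality weights, 2575 and 947 without a low-count filter (40613 genes), 1071 and 941 with 10 counts in every library (5541 genes), 776 and 1025 thinned to the smallest total (6855 genes), 1008 and 1757 with upper-quartile scaling, and 5008 and 549 on library totals. Leaving out 1 culture gave 260 to 2529 and 298 to 2427, and leaving out 1 library without the replicate block gave 680 to 2179 and 699 to 2082. The lowest of these were without light library 1 (680 and 699) and without polysome library 3 (770 and 730), and without polysome library 1 it was 871 and 899. Differences from vehicle numbered 1347 higher and 2459 lower on library totals, and 1356 to 2437 and 933 to 2072 without 1 sorafenib culture. The median of genes with a pyrimidine start (-0.11) was 0.52 on library totals, -0.27 with 10 counts in every library and 0.028 without culture 3, and -0.14 without culture 2. The ratio of NORAD turned to 0.56 on library totals. The polysome minus light differences in share kept their direction and moved by less than 1 SD between cultures when any 1 culture was left out, in the 5 classes recomputed. The causes were not tested. Grouping by protein length was planned and not run. Depth limits the genes with few counts in light libraries 1 and 2.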
